A study of Mus musculus with 6 samples.

Results

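The muscle atrophy genes examined here are 10 genes of ubiquitin-dependent protein breakdown in striated muscle, chosen by gene name from the 35618 genes of the deposited count table. They comprise the MuRF ubiquitin ligases Trim63, Trim54 and Trim55, the F-box proteins Fbxo32, Fbxo30 and Fbxo21, the transcription factors Foxo1, Foxo3 and Foxo4, and the growth factor Mstn. All 10 had a row in the table, and 9 had enough counts to be tested. Messenger RNA was sequenced from mouse hearts, in 3 libraries of floxed animals (GSDMD flox/flox, with Gsdmd flanked by recombination sites) and 3 libraries of animals with a myocardial knockout of Gsdmd (GSDMD-CKO). Gsdmd encodes the pore-forming protein gasdermin D. Every animal, in both groups, was 6 to 8 weeks old, received 20 mg/kg of the anthracycline doxorubicin into the peritoneum, and gave its heart 3 days later. Hearts without doxorubicin were not analysed here, so the comparison is between genotypes after the drug. The sources used here name neither the Cre driver of the knockout nor the animals behind each library, so the p-values below rest on the spread between libraries, which may be technical.

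Ubiquitin ligases mark proteins for the proteasome. In muscle, MuRF1 (from Trim63) and atrogin-1 (from Fbxo32) are the best known ligases of wasting, and they target myofibrillar proteins and regulators of protein synthesis and growth. FoxO transcription factors drive both genes. Insulin and IGF1 signalling through Akt keeps FoxO proteins out of the nucleus, glucocorticoids raise the transcription of MuRF1, and myostatin acts through SMAD proteins to restrain muscle mass. In the heart MuRF1 and atrogin-1 are also known as brakes on hypertrophy.

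Promoter sequence was at hand for 7 of the 10 genes, as RefSeq windows of 300 bases on build GRCm38.p6, of which 250 lie before the start site. The windows of Trim63 (chr4:134314870-134315169, plus strand) and Trim54 (chr5:31116362-31116661, plus strand) are shown because the levels of their transcripts put the 6 libraries in the same order. Capitals mark matches, on either strand, to the FoxO motif GTAAACA, the palindromic glucocorticoid receptor motif GAACANNNTGTTC, where N is any base, and the TATA box TATAAA.
Trim63: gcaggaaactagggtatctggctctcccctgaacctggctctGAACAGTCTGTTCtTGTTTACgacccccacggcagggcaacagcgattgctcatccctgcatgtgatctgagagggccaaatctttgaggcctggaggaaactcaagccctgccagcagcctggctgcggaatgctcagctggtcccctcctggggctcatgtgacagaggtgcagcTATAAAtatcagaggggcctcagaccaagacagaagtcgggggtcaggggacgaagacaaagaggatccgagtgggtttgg
Trim54: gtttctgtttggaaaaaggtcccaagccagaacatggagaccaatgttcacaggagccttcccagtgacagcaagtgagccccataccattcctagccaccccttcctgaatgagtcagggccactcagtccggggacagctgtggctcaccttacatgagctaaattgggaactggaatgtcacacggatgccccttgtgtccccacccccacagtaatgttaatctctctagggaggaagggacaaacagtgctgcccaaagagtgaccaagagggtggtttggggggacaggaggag

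The Trim63 window held the FoxO motif on the minus strand, 194 to 188 bases before the start site, and the glucocorticoid receptor motif 208 to 196 bases before it, the pair separated by a single base and without overlap. Its TATA box lay 31 to 26 bases before the start site. The Trim54 window held none of the 3 motifs. Among all 32851 promoter windows of the same length, 3.65% held the FoxO motif, 0.0578% the glucocorticoid receptor motif and 13.6% the TATA box, and 2 windows held both of the first 2. Of the other windows at hand, those of Fbxo30, Fbxo21, Foxo1 and Foxo3 held none of the motifs and that of Mstn held a TATA box 29 to 24 bases before the start site. These are matches of letters in a short window and do not show binding.

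Each library held between 17279147 and 18875902 counted reads. Gsdmd measured 6707, 8271 and 7861 CPM (counts scaled to library size by TMM) in floxed libraries 1, 2 and 3 and 77.4, 136.6 and 111.2 CPM in knockout libraries 1, 2 and 3, which divided them as labelled. Its floxed levels lay above those of the cardiac myosin Myh6 (1447 to 1680 CPM) and within those of the cardiac troponin Tnnt2 (4755 to 8658 CPM). The reason for so high a level was not tested. Over all 16591 genes tested, edgeR called 2 genes at an adjusted p under 0.05, both lower in the knockout. The heart label was checked with 10 cardiomyocyte markers, all detected in every library, whose summed level was 18567 to 26784 CPM in floxed and 11452 to 22987 CPM in knockout libraries. The 15 skeletal muscle markers summed to 987 to 1146 CPM in floxed and 697 to 920 CPM in knockout libraries, mostly from Acta1, Myl1 and Ckm, which the heart also expresses. The fast skeletal myosins Myh1, Myh2 and Myh4 had at most 63, 6 and 3 counts in any library, and Tnnt3, 1 of the 2 genes called, had means of 23.1 ± 5.05 CPM (floxed) and 2.12 ± 0.251 CPM (knockout; SD, n = 3; edgeR adjusted p = 0.0192). T and NK cell markers (9 of 9 detected) summed to 56.9 to 135.9 CPM in floxed and 130.1 to 614.9 CPM in knockout libraries, and 5 of 5 erythroid markers to 5.30 to 14.8 and 49.3 to 406.6 CPM. Knockout library 1 lay nearest to the floxed libraries in both of these lists, and mitochondrially encoded genes took 18.1% of its counts against 5.48% to 11.2% in the other libraries.

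None of the 9 tested genes passed edgeR's test between genotypes (0 by limma-voom and 1 by DESeq2), where 0.0121% of all genes did. Their log2 fold changes, knockout minus floxed, ran from -0.95 to 0.10 with a median of -0.44, against a median of 0.03 over all genes tested. Of the 9, 8 were negative, compared with 46.2% of all genes. With an unadjusted p under 0.05 there was 1 of the 9, Trim55, where 7.02% of all genes had one. Trim55 was also the only one of the 9 whose genotypes did not overlap, being lower in each knockout library, as were 5.98% of all genes (11.8% in either direction).

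**Figure D1:**
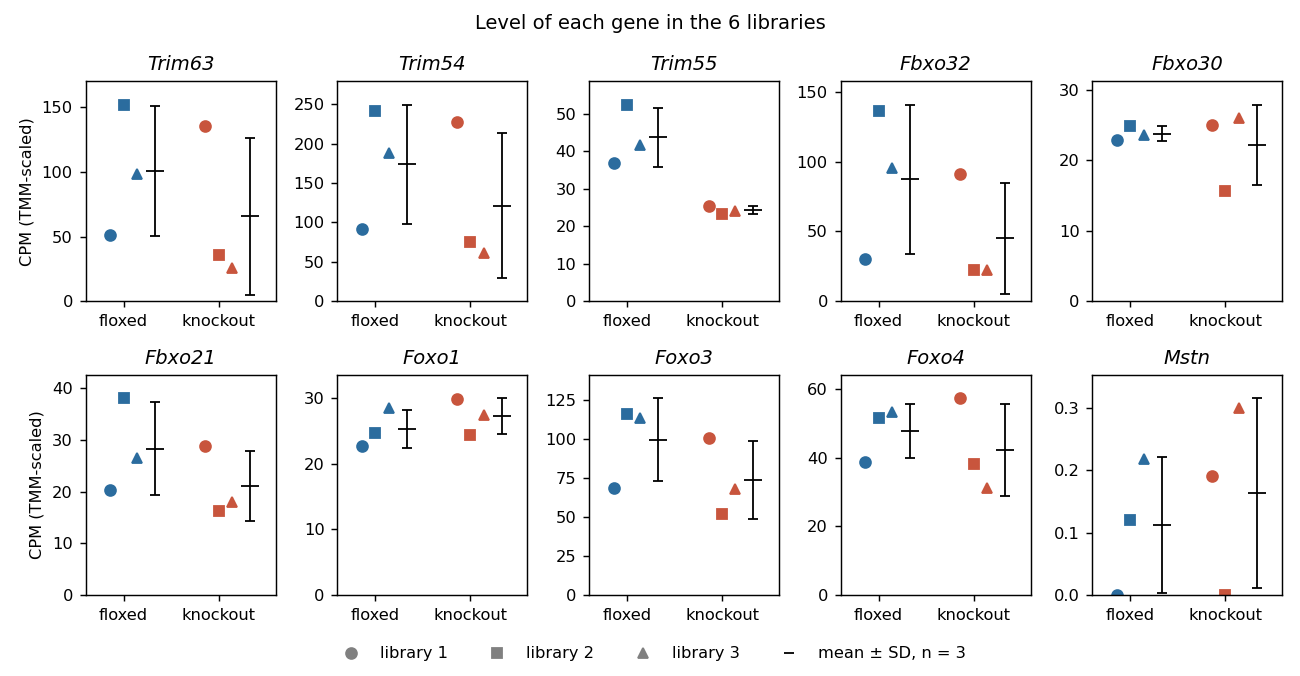
Level of each of the 10 genes in CPM (vertical axis, linear from 0) in the 3 floxed (blue) and 3 knockout (red) libraries; symbols give the library number, and black bars the mean ± SD of each genotype (n = 3). Trim55 separates the genotypes, while Trim63, Trim54 and Fbxo32 have 1 low floxed library and 1 high knockout library.

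Trim63 encodes MuRF1, a RING-finger ligase at the M-band of the sarcomere. The gene lies on chromosome 4 from 134042431 to 134056940 on the plus strand, at the positions of the deposited table. The submitters' processing notes name build mm10 (GRCm38), but for 0 of the 10 genes did the deposited position overlap that of GENCODE M21 on GRCm38, where Trim63 lies from 134315120 to 134329629. The positions given here for each gene are therefore on a build other than that of the promoter windows, which the sources used here do not name. It measured 51.4, 151.9 and 98.6 CPM in floxed libraries 1, 2 and 3 and 135.5, 35.8 and 25.5 CPM in knockout libraries 1, 2 and 3. Knockout libraries 2 and 3 were the lowest of the 6, but knockout library 1 stood above 2 of the 3 floxed libraries, so the genotypes overlapped. The means were 100.7 ± 50.3 and 65.6 ± 60.8 CPM (SD, n = 3), a log2 fold change of -0.62 (standard error 0.68, 95% interval -2.22 to 0.98, edgeR adjusted p = 0.932). The interval ran from 0.215 to 1.97 times the floxed level.

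Trim54 encodes MuRF3, a related ligase that binds and stabilises microtubules at the Z-disc. It lies on chromosome 5 from 31274056 to 31294974, plus strand. In the order 1, 2, 3, its floxed libraries measured 92.2, 241.5 and 187.9 CPM and its knockout libraries 227.2, 75.1 and 61.8 CPM. The 6 libraries fell in the same order as for Trim63, an order shared by 176 of the genes tested (1.06%). Within a library, the count of Trim63 per count of Trim54 ranged only from 0.412 to 0.629, although Trim63 itself spanned 5.97-fold and Trim54 3.91-fold. The log2 fold change of Trim54 was -0.52 (standard error 0.57, 95% interval -1.87 to 0.83, edgeR adjusted p = 0.932).

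Trim55 encodes MuRF2, the third member of the family, which binds titin near the M-band and shuttles to the nucleus. It lies on chromosome 3 from 19698638 to 19746585, plus strand. Its levels were 36.9, 52.5 and 41.8 CPM in floxed libraries 1, 2 and 3 and 25.5, 23.3 and 24.2 CPM in knockout libraries 1, 2 and 3. All 3 knockout libraries, the first included, lay below every floxed library with a coefficient of variation of 4.56% among them. The means of 43.8 ± 7.96 and 24.3 ± 1.11 CPM (SD, n = 3) differed by a log2 fold change of -0.85 (standard error 0.18, 95% interval -1.27 to -0.43), or 1.80-fold. In edgeR's quasi-likelihood test this gave an unadjusted p of 0.00201, the 61st smallest of the 16591 genes, and an adjusted p of 0.529, which did not pass. DESeq2 placed Trim55 lower at an adjusted p of 0.00898, where it called 1.47% of the genes with an adjusted p (0.724% lower). Trim55 thus did not follow Trim63 and Trim54: its count per count of Trim54 was lowest in knockout library 1 at 0.112 and highest in floxed library 1 at 0.401.

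Fbxo32 encodes atrogin-1, the substrate-binding subunit of an SCF ubiquitin ligase. It lies on chromosome 15 from 58039275 to 58078328, minus strand. It measured 30.0, 136.1 and 95.6 CPM in floxed libraries 1, 2 and 3 and 90.9, 22.3 and 22.1 CPM in knockout libraries 1, 2 and 3. Floxed library 1 and knockout libraries 2 and 3 were low and the other 3 high, a 6.15-fold span that the genotype did not divide. With means of 87.2 ± 53.6 and 45.1 ± 39.6 CPM (SD, n = 3), the log2 fold change was -0.95 (standard error 0.72, 95% interval -2.66 to 0.75, edgeR adjusted p = 0.889). This was the most negative of the 9 fold changes and the one with the largest standard error.

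The 2 other F-box genes varied less. Fbxo30 encodes MUSA1, a ligase subunit that bone morphogenetic protein signalling holds down in skeletal muscle, and lies on chromosome 10 from 11157074 to 11173796. Its levels were 22.9, 24.9 and 23.5 CPM in the floxed and 24.9, 15.7 and 26.0 CPM in the knockout libraries, which placed knockout library 2 alone below the rest (log2 fold change -0.10, standard error 0.22, edgeR adjusted p = 0.972). Fbxo21 encodes SMART, another F-box protein that FoxO induces in wasting skeletal muscle, and lies on chromosome 5 from 118114795 to 118148266. It measured 20.4, 38.0 and 26.5 CPM in the floxed and 28.8, 16.3 and 18.1 CPM in the knockout libraries, high and low in nearly the same libraries as Trim63 (log2 fold change -0.43, standard error 0.31, edgeR adjusted p = 0.877). The 95% intervals were -0.62 to 0.43 for Fbxo30 and -1.16 to 0.31 for Fbxo21.

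Among the FoxO factors, Foxo1 was the steadiest of the 9 genes. Foxo1 (chromosome 3, 52175757 to 52260642) measured 22.8, 24.7 and 28.5 CPM in the floxed and 29.8, 24.3 and 27.4 CPM in the knockout libraries, a 1.31-fold span. Its log2 fold change was 0.10 (standard error 0.17, 95% interval -0.29 to 0.50, edgeR adjusted p = 0.955). The interval leaves room for changes of up to 1.41-fold upward at this number of libraries.

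Foxo3, which drives atrogin-1 and autophagy genes in muscle, lies on chromosome 10 from 42057837 to 42152751. It measured 69.0, 116.2 and 113.8 CPM in the floxed and 101.0, 52.0 and 67.9 CPM in the knockout libraries, so that floxed library 1 lay with knockout libraries 2 and 3. Its log2 fold change was -0.44 (standard error 0.31, 95% interval -1.17 to 0.30, edgeR adjusted p = 0.870). Counts of Foxo3 per count of Foxo1 ranged from 2.14 in knockout library 2 to 4.71 in floxed library 2. Foxo4, the X-linked member (100298134 to 100304479), measured 38.8, 51.5 and 53.3 CPM and 57.3, 38.3 and 31.3 CPM in the same order (log2 fold change -0.18, standard error 0.26, edgeR adjusted p = 0.947). Its genotypes overlapped as well, with the highest value in knockout library 1. Foxo6, the remaining FoxO gene of the mouse, was scarce at 0.983 ± 0.553 and 1.26 ± 0.159 CPM (SD, n = 3; edgeR adjusted p = 0.943).

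Mstn encodes myostatin, the secreted inhibitor of muscle growth, and lies on chromosome 1 from 53100799 to 53107238. It had 0, 2 and 4 counts in floxed libraries 1, 2 and 3 and 3, 0 and 6 counts in knockout libraries 1, 2 and 3. It was therefore at the limit of detection in both genotypes and was not tested. A count of 0 allows a level of up to 0.156 CPM in floxed library 1 and 0.157 CPM in knockout library 2, counting error only.

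Per length, on the deposited FPKM scale, which corrects a level for the length of the gene, Trim54 was the most abundant transcript of the 10. It averaged 100.4 FPKM over the 6 libraries (range 46.9 to 161.4), above Trim63 in 6 of 6 libraries, which averaged 28.4 FPKM (9.77 to 51.3). Foxo4, Trim55, Foxo3 and Fbxo32 followed at means of 12.8, 12.7, 11.3 and 9.23 FPKM, with ranges that overlapped from each to the next. Foxo4 stood above Trim55 in only 2 of 6 libraries, and in the floxed libraries alone the means were in the reverse order, 16.3 FPKM for Trim55 and 13.6 FPKM for Foxo4. Fbxo30 and Fbxo21 lay close together at 4.42 and 4.397 FPKM, each higher in 3 of the 6 libraries. Foxo1 came next at 3.02 FPKM (2.70 to 3.44), below Fbxo21 in 6 of 6 libraries, and Mstn was listed at 0 to 0.12 FPKM.

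**Figure D2:**
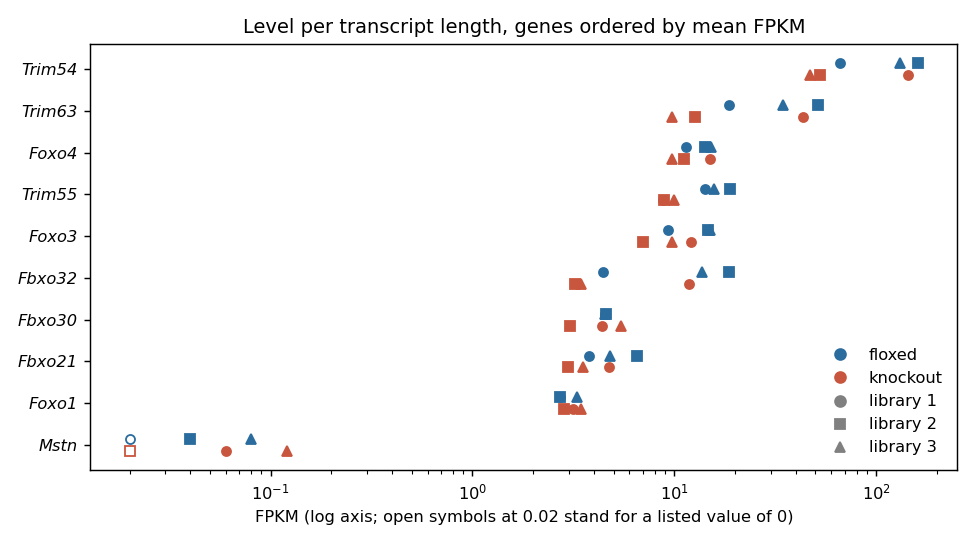
Deposited FPKM of each gene (horizontal log axis) in every floxed (blue) and knockout (red) library, with genes ordered by the mean over the 6 libraries; open symbols stand for a listed value of 0. Trim54 lies highest, Foxo1 lies in a narrow band of 2.70 to 3.44, and Mstn is at or near 0.

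Several of the 9 genes shared a pattern over the libraries that crossed the genotypes. Relative to the floxed mean, Trim63 stood at -1.36 and -1.85 on the log2 scale in knockout libraries 2 and 3 and at 0.56 in knockout library 1. Fbxo32 stood at -1.71, -1.72 and 0.31 there, and at -1.29 in floxed library 1. Cardiomyocyte markers, taken as the median of 10 genes, had levels of 0.19, -0.21 and -1.002 in knockout libraries 1, 2 and 3 and of -0.39, 0.33 and -0.01 in the floxed libraries. T and NK cell markers had 0.40, 2.74 and 2.81 in the knockout libraries and 0.52, -0.67 and 0.09 in the floxed libraries, so the libraries with the least Trim63 and Fbxo32 had the most T cell transcripts. Erythroid markers were at 2.30, 5.39 and 5.61 in the knockout and at -0.76 to 0.59 in the floxed libraries. Fibroblast markers stood at 0.53, -0.59 and 0.07 in the floxed and -0.89, -0.35 and 0.61 in the knockout libraries, and macrophage markers at 0.33, -0.59 and 0.26 and at -1.17, 0.34 and 0.13. Both lists were lowest in floxed library 2 and knockout library 1, the libraries highest for Trim63 and Trim54. The part of these cell types in the levels of the 9 genes was not tested. In bulk tissue, fewer cardiomyocytes and less RNA per cardiomyocyte cannot be told apart.

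**Figure D3:**
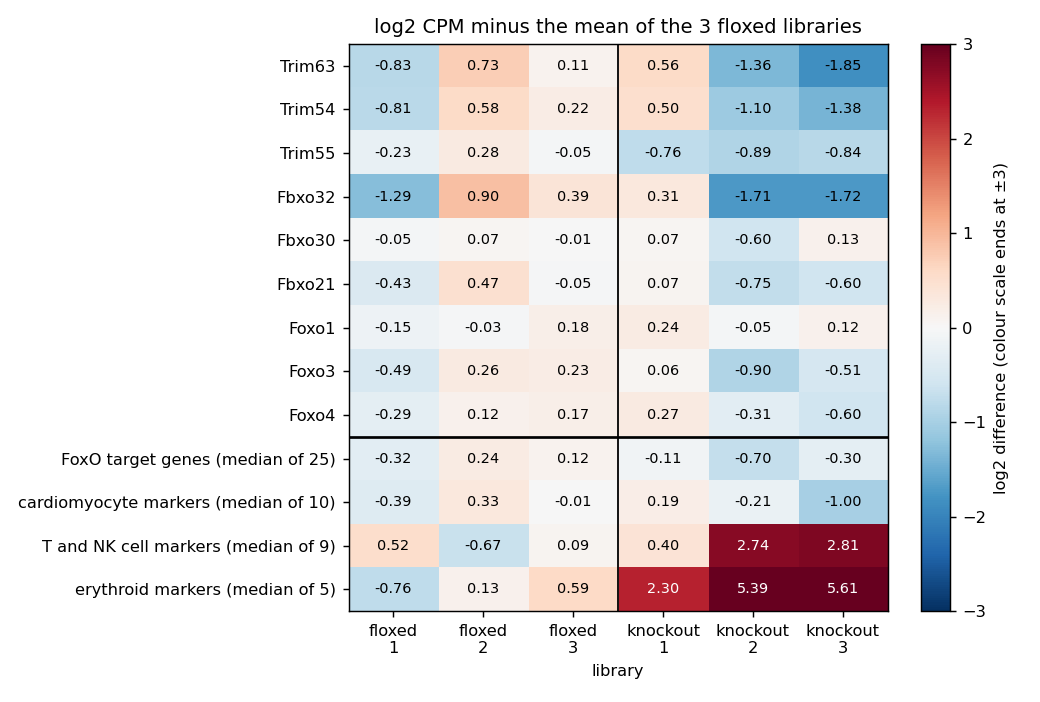
Difference in log2 CPM from the mean of the 3 floxed libraries for the 9 tested genes (upper rows) and for the median of 4 gene lists (lower rows) in each library (columns); the colour scale ends at ±3, and each cell carries its value. Trim63, Trim54 and Fbxo32 are low in floxed library 1 and knockout libraries 2 and 3, while Trim55 is low in all 3 knockout libraries, from -0.89 to -0.76.

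For 7 of the 9 genes, leaving out knockout library 1 moved the log2 fold change further than leaving out any other library; the exceptions were Trim55 and Fbxo30. In the other 5 libraries, the log2 fold changes were -1.74 for Trim63, -1.36 for Trim54, -1.99 for Fbxo32, -0.75 for Foxo3, -0.74 for Fbxo21 and -0.48 for Foxo4, with Foxo1 at 0.013. The edgeR adjusted p-values of the first 6 of these lay between 0.0902 for Trim63 and 0.249 for Foxo4. Trim55, at -0.90, came closest to the threshold with an adjusted p of 0.0596. No member passed, where 2.92% of all genes did (0.514% lower and 2.41% higher). The median of the 9 was -0.75 against -0.02 over all genes tested in that subset. Without 1 of the other 5 libraries, Trim63 ranged from -0.94 to -0.20 and Fbxo32 from -1.37 to -0.48. Trim55 ranged from -0.96 to -0.70 over all 6 omissions, the lower end without floxed library 1 and the upper without floxed library 2, and Fbxo30 from -0.23 to 0.095.

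**Figure D4:**
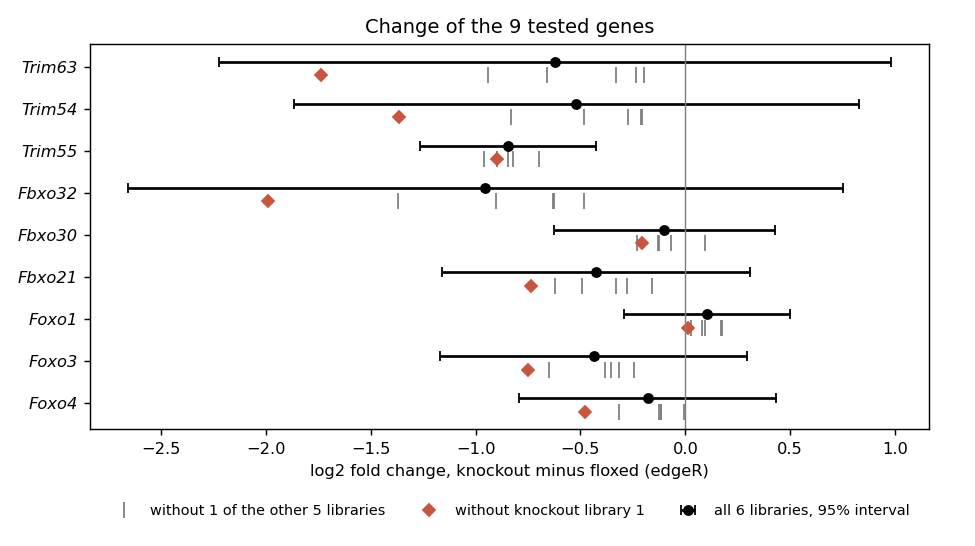
Log2 fold change, knockout minus floxed, from edgeR for the 9 tested genes, with all 6 libraries (black points with 95% intervals), without knockout library 1 (red diamonds) and without 1 of the other 5 libraries (grey ticks). The interval of Trim55, from -1.27 to -0.43, is the only one that does not reach 0, although its adjusted p of 0.529 did not pass; Trim63, Trim54 and Fbxo32 move most without knockout library 1.

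The genes with the pattern nearest to each member were found among 13443 other protein-coding genes with a mean of at least 1 CPM. Nearness was the root mean square difference in log2 CPM, centred on the mean of the 6 libraries. Nearest to Trim63 were Myh14, a non-muscle myosin heavy chain (0.10), Osbp2 (0.11) and Csdc2 (0.12), and Trim54 ranked 20th at 0.20. Nearest to Trim54 were Ndrg2 (0.07), Mlycd, the malonyl-CoA decarboxylase (0.09), and Osbp2 (0.10). Fbxo32 had as its nearest gene Plin5, a lipid droplet protein of oxidative muscle (0.13), before Calr3 (0.22) and Acss1, a mitochondrial acetyl-CoA synthetase (0.24). Plin5 measured 17.04, 69.7 and 48.1 CPM in the floxed and 43.0, 12.1 and 9.54 CPM in the knockout libraries, high and low in the same libraries as Fbxo32. Trim55 had Smpx, a small muscle protein (0.08), Lrrc27 (0.09) and Ankrd1, a stretch-responsive sarcomere protein (0.09). Among the members themselves the nearest pair was Fbxo21 with Foxo3 at 0.16, then Trim63 with Trim54. These distances rest on 6 libraries and describe likeness only.

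Genes upstream of FoxO did not pass the test. Of 28 genes of insulin, IGF1 and Akt signalling, 0 were called in either direction (0 also at an unadjusted p under 0.05, by DESeq2 and by limma-voom). The median log2 fold change was 0.07, and 0.04 without knockout library 1. Akt1 averaged 209.3 ± 7.05 and 199.4 ± 42.7 CPM and Akt2 125.8 ± 8.20 and 117.8 ± 6.65 CPM in floxed and knockout libraries (SD, n = 3). Their edgeR adjusted p-values were 0.976 and 0.958. Sgk1, a kinase that also phosphorylates FoxO, was highest in knockout library 1 at 285.9 CPM and lowest in knockout library 3 at 97.0 CPM, with 159.7 to 188.7 CPM in the floxed libraries. The growth factor Igf1 averaged 48.9 ± 18.6 and 42.4 ± 13.5 CPM. It measured 68.4, 31.3 and 47.0 CPM in the floxed and 27.7, 45.2 and 54.2 CPM in the knockout libraries. Of the 28 genes, 3 had the low libraries of Fbxo32 as their lowest and 4 as their highest, against 15.6% and 15.1% of all genes tested. These are transcript levels, and the activity of the pathway was not measured.

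For 25 genes listed as targets of FoxO, other than the members, the median log2 fold change was -0.33. Of the 25 values 18 were negative, compared with 46.2% of all genes tested. Without knockout library 1 the median was -0.60. The list was chosen by role, and whether FoxO or another regulator set the levels of these targets was not tested. Of these genes edgeR called 0 and limma-voom 0. In edgeR 3 of the 25 had an unadjusted p under 0.05, all lower, where 7.02% of all genes had one in either direction. DESeq2 called 1, lower, where it called 0.724% of the genes with an adjusted p lower. Gadd45a, a growth arrest gene, had the smallest edgeR p of the list (unadjusted, 0.00168). It measured 18.3, 24.2 and 26.8 CPM in the floxed and 12.4, 10.8 and 8.44 CPM in the knockout libraries, without overlap. Its log2 fold change was -1.13 (standard error 0.23, edgeR adjusted p = 0.529), and DESeq2 placed it lower at an adjusted p of 0.00558. Pdk4, the kinase that switches off pyruvate dehydrogenase in fasting, measured 67.0, 443.5 and 393.5 CPM in the floxed and 326.4, 37.9 and 36.7 CPM in the knockout libraries. These are the high and low libraries of Fbxo32, and the log2 fold change of -1.17 carried a standard error of 1.02 (edgeR adjusted p = 0.896). Klf15 and Sesn1 were likewise low in floxed library 1 and knockout libraries 2 and 3, Klf15 at 17.04, 10.5 and 11.8 CPM and Sesn1 at 77.0, 69.3 and 62.9 CPM. In the other 3 libraries Klf15 was at 41.3 to 67.9 CPM and Sesn1 at 168.3 to 290.8 CPM. Of the 25 targets, 12 had floxed library 1 and knockout libraries 2 and 3 as their lowest, as did 15.6% of all genes tested. Among the 10 cardiomyocyte markers 5 had these 3 libraries as their lowest and 0 as their highest, so the split was not particular to FoxO targets. The same 3 libraries were the highest for 15.1% of all genes tested and for 2 of the 25 targets. Bcl6, a transcriptional repressor and 1 of those 2, measured 27.1, 21.9 and 26.0 CPM in the floxed and 17.9, 34.5 and 40.7 CPM in the knockout libraries. Sesn3, a paralogue of Sesn1, was lowest in knockout library 1 at 11.4 CPM and highest in knockout library 3 at 41.2 CPM. Leaving out any 1 library other than knockout library 1, edgeR called 0 of all genes tested. Without knockout library 1, edgeR called 2 of the targets lower, Gadd45a (log2 fold change -1.28, adjusted p = 0.0349) and the cell cycle inhibitor Cdkn1a (-1.13, adjusted p = 0.0490). In that subset 0.514% of all genes were called lower. With all 6 libraries Cdkn1a had a log2 fold change of -0.65 (edgeR adjusted p = 0.796), as knockout library 1, at 493.6 CPM, lay within the floxed range of 457.5 to 534.8 CPM and the other knockout libraries at 197.0 and 266.4 CPM.

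Of the inducers of atrophy, 22 of 24 were tested and 0 called by edgeR, DESeq2 or limma-voom, and their fold changes had a median of -0.11 on the log2 scale, or -0.02 without knockout library 1. At an unadjusted p under 0.05 edgeR placed 1 higher and 1 lower, where 7.02% of all genes had such a p in either direction. Fkbp5, a glucocorticoid-induced gene, was lowest in floxed library 1 at 68.8 CPM and knockout libraries 2 and 3 at 108.4 and 157.9 CPM. It measured 282.9 to 335.8 CPM in the others, so its low libraries were those of Fbxo32. Of the 22 inducers, 8 had these libraries as their lowest and 8 as their highest, against 15.6% and 15.1% of all genes tested. The cause of this split was not tested. The glucocorticoid receptor gene Nr3c1 averaged 51.9 ± 12.4 and 59.1 ± 17.4 CPM (SD, n = 3). Tnfrsf12a, the receptor of the cytokine TWEAK, measured 190.3, 169.6 and 184.5 CPM in the floxed and 69.1, 90.0 and 132.9 CPM in the knockout libraries. It did not overlap between the genotypes and had a log2 fold change of -0.90 (standard error 0.26, edgeR adjusted p = 0.578). Socs3, an inhibitor of cytokine signalling, had a log2 fold change of 1.06 (standard error 0.38, edgeR adjusted p = 0.635). Without knockout library 1, edgeR called Socs3 and Tnf higher, at 1.36 (adjusted p = 0.0276) and 1.84 (adjusted p = 0.0333), where Tnf had 1.42 (adjusted p = 0.721) with all 6 libraries. Of all genes, 2.41% were called higher without that library, and 0 were called without any 1 of the others.

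In the myostatin and activin pathway 22 of 23 genes were tested and 0 called by edgeR, DESeq2 or limma-voom, the median log2 fold change being -0.09, and -0.03 without knockout library 1. At an unadjusted p under 0.05 edgeR placed 1 gene lower, where 7.02% of all genes had such a p in either direction. Inhbb, which encodes an activin subunit, had the smallest p of the list. It measured 43.6, 24.5 and 44.7 CPM in the floxed and 13.6, 14.4 and 23.9 CPM in the knockout libraries, without overlap (log2 fold change -1.12, standard error 0.32, edgeR adjusted p = 0.578). Gdf11, the closest relative of myostatin, averaged 3.89 ± 1.502 and 6.27 ± 4.196 CPM, the receptor gene Acvr2b 2.19 ± 0.631 and 1.57 ± 0.718 CPM, and the antagonist Fst 7.54 ± 3.69 and 6.83 ± 4.204 CPM (SD, n = 3). The receptor-regulated SMAD gene Smad3 measured 26.7 ± 0.233 and 27.1 ± 6.47 CPM.

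Other muscle ligases and the shared ubiquitin machinery were read from the same fit over all genes. Of 20 other ligases 0 were called by edgeR, DESeq2 or limma-voom. Their median log2 fold change was -0.09 with all libraries and -0.36 without knockout library 1. In edgeR 2 were lower at an unadjusted p under 0.05, where 7.02% of all genes had such a p in either direction. Klhl40, an adaptor of a cullin ligase that stabilises thin filament proteins, measured 12.1, 15.5 and 12.4 CPM in the floxed and 9.33, 7.49 and 6.44 CPM in the knockout libraries (log2 fold change -0.78, standard error 0.23, edgeR adjusted p = 0.578). Wwp1, a HECT-domain ligase, averaged 49.4 ± 2.16 and 36.5 ± 5.33 CPM, and Traf6, a ligase of cytokine signalling, 20.5 ± 1.82 and 23.7 ± 1.33 CPM (SD, n = 3), neither with overlap. Fbxo40, Nedd4, Trim32 and Mdm2 overlapped between the genotypes, with log2 fold changes of -0.25, -0.07, -0.04 and -0.23. Of 19 genes for E1 and E2 enzymes, ubiquitin and the SCF core, 0 were called by any of the 3 tools, 0 had an unadjusted p under 0.05 in edgeR, and the median was -0.04, and 0.03 without knockout library 1. Skp1, which links F-box proteins to the cullin, averaged 141.7 ± 12.0 and 115.0 ± 14.5 CPM (edgeR adjusted p = 0.835), and the scaffold Cul1 78.1 ± 0.376 and 74.4 ± 18.0 CPM.

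Substrates and partners of the MuRF proteins and atrogin-1 had a median log2 fold change of -0.10 over 20 genes, and of -0.40 without knockout library 1. Of these 0 were called by edgeR, DESeq2 or limma-voom. In edgeR 1 was lower at an unadjusted p under 0.05, where 7.02% of all genes had such a p in either direction. Sqstm1, the p62 autophagy receptor found with MuRF proteins at the sarcomere, had a log2 fold change of -0.75 (standard error 0.27, edgeR adjusted p = 0.635). Ckm, the muscle creatine kinase that MuRF1 targets, measured 121.5, 227.9 and 137.4 CPM in the floxed and 212.7, 110.6 and 48.1 CPM in the knockout libraries, again high in knockout library 1. Titin (Ttn) averaged 1100 ± 262.7 and 1129 ± 498.8 CPM, and Mybpc3, myosin-binding protein C, 2194 ± 301.1 and 1659 ± 599.7 CPM (SD, n = 3). Leaving out any 1 library other than knockout library 1, edgeR called 0 of all genes tested. Without knockout library 1, edgeR called 1 gene of this list, the slow myosin Myh7, lower at a log2 fold change of -2.92 (adjusted p = 0.0490). In that subset 0.514% of all genes were called lower. With all 6 libraries the log2 fold change of Myh7 was -0.61. Of the marker lists, cardiomyocyte markers had a median of -0.31 (9 of 10 negative), skeletal muscle markers -0.40 (7 of 10) and neutrophil markers -0.52 (3 of 4), against -0.44 for the 9 genes and -0.33 for the FoxO targets.

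**Figure D5:**
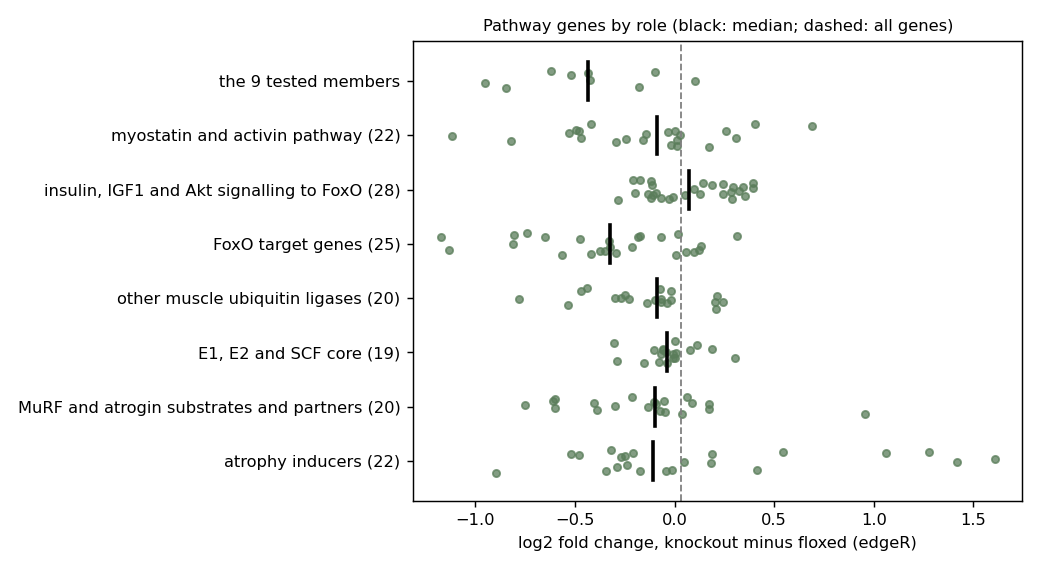
Log2 fold change, knockout minus floxed, from edgeR for each tested gene (points, with vertical scatter for legibility) of the 9 members and of 7 lists of related genes, the number tested in parentheses; black bars are medians and the dashed line is the median of all genes tested, 0.03. Of the 8 sets plotted, the 9 genes and the FoxO targets have the lowest medians, -0.44 and -0.33; cardiomyocyte, skeletal muscle and neutrophil markers, not plotted, had medians of -0.31, -0.40 and -0.52, and no point belongs to a gene that passed the test.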

How the data were processed

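Stranded mRNA libraries were made from heart RNA, per the labels' protocols. Per the submitters' processing notes, the tools were HISAT2 2.1.0, featureCounts 1.6.2, fastp 0.19.3, GATK 4.0.11.0, DESeq2 1.22.1, StringTie 1.3.4d and Cufflinks on build mm10, without roles; the deposited gene positions are not on that build. The authors deposited raw counts for 35618 genes and FPKM for 35606 of these. Whether counting used strand is not stated. Non-coding genes overlap Trim54, Trim55, Fbxo32 and Foxo1, with at most 84 counts in any library.

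Libraries were grouped from the labels. The main test was edgeR 4.0.16 (R 4.3.3): filterByExpr at a minimum count of 10 (16591 genes, 99.8% of counts), TMM, robust quasi-likelihood F test with genotype alone, Benjamini-Hochberg adjustment over all genes tested, threshold 0.05. Standard errors and 95% intervals came from the F statistic. Log2 CPM took a prior count of 2, and a count of 0 was read as allowing 3 counts. No columns of other samples were present (0). An exact permutation test of 3 libraries against 3 cannot go below 0.1 and is not given. Tests were tried on simulated counts. Alternatives included DESeq2 1.42.0 and limma 3.58.1 (voom, and log2 FPKM with pseudocounts of 1 or 0.1). Figures used matplotlib 3.10.9.

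The members and lists were chosen with earlier results of these data known. All members, a fixed set of pathway genes, the called genes of each list and the 2 genes of each list with the smallest p were eligible for naming. Myh7, Cdkn1a, Tnf, Bcl6 and Sesn3 were named after their values were seen.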

Additional observations from a re-analysis of the deposited data

How the results depend on the processing

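Of the 9 members tested, edgeR called 0 with all libraries and 0 without any 1 library. DESeq2 called 1 (Trim55) and every other alternative 0. Over all genes, edgeR called 2. The count was 10 without a filter on low counts, 243 with DESeq2, 1 with limma-voom, 1 with limma on log2(FPKM + 1), and 0 to 500 without 1 library at a time, the 500 without knockout library 1 and 0 without each of the others. The median log2 fold change of the members was -0.75 to -0.20 without 1 library at a time and -0.46 to -0.40 in the other settings. Of 153 values of single members under alternatives, 1 changed sign: Fbxo30 was 0.0949 without knockout library 2, the top of a range from -0.233 without 1 library at a time, and the cause was not tested. Deviations of same-numbered libraries had correlations across genes of -0.57, -0.31 and 0.04, and those of differently numbered libraries -0.51 to 0.60. With 3 libraries a group these values cannot show whether libraries were handled in pairs. With the replicate block edgeR called 0 genes over the whole table and gave a median of -0.46 for the members. With 3 libraries a group, standard errors were largest for Trim63, Trim54 and Fbxo32.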
